A study of Mus musculus with 19 samples.

Results

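The 10 genes followed here, which mark or regulate the epithelial-mesenchymal transition (EMT), were measured in sorted lung tumor cells. They were chosen by name as the epithelial markers Cdh1 and Epcam, the mesenchymal markers Cdh2 and Vim, and the regulators Snai1, Snai2, Zeb1, Zeb2, Twist1 and Hmga2. All 10 were listed among the 53558 genes of the deposited tables, and 8 of them passed the low-count filter that left 13986 genes for testing. Cdh2 and Twist1 did not pass it. The abundance of stromal RNA was read from the fibrillar collagen genes Col1a1 and Col1a2 and from fixed lists of cell type markers.

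Every mouse carried Cre-activated alleles, among them a tdTomato reporter (R26LSL-tdTomato) and Cas9 (H11LSL-Cas9), on a mixed C57BL/6J:129 background. Mice aged 6 to 12 weeks received lentivirus through the trachea, and tumors grew for 17 weeks. The virus carried Cre with 3 inert guides (sgNeo1, sgNT and sgNeo2, the sgInert group, 7 libraries), with guides against Cebpa, Cebpb and Cebpd (the sgCebpa/b/d group, 7 libraries) or with a guide against Lkb1 (the sgLkb1 group, 5 libraries). The controls therefore shared all of these alleles and Cre with both targeted groups, and guides acted in the infected lung cells rather than in the germline. Live cells were sorted after removal of cells positive for CD45, CD31, F4/80 or Ter119, a panel that holds no fibroblast antigen. A gate on tdTomato, which would also remove uninfected fibroblasts, is described for neoplastic cells elsewhere in the study, and the labels of these libraries do not name it.

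The number of libraries is not the number of animals, since 3 animal numbers were shared by 7 libraries. Library titles carried an animal number that began with MT (3 sgInert, 4 sgCebpa/b/d and 3 sgLkb1 libraries) or with ZR (4 sgInert libraries), or carried no animal number (3 sgCebpa/b/d and 2 sgLkb1 libraries). What these title series stand for is not given in the sources used here. The 3 sgCebpa/b/d libraries with no animal number were the 3 males of that group, and all sgLkb1 libraries were female. The 5 libraries with no animal number stood apart in markers of cells that the sort was set to remove. The summed level of 7 endothelial markers was 176 to 251 CPM (counts scaled to a common library total) in the 3 sgCebpa/b/d libraries with no number and 96.3 to 172 CPM in the 2 sgLkb1 ones, against 18.3 to 47.3 and 47.6 to 90.8 CPM in the MT libraries of the same groups and 6.99 to 42.6 CPM in sgInert. Total counts ran from 2760722 to 9944131 per library. Stk11, the mouse gene of LKB1, fell by 1.24 ± 0.17 on the log2 scale (SE) in sgLkb1 against sgInert (adjusted p = 1.07e-04), from 19.5 to 22.9 CPM in sgInert to 7.53 to 12.5 CPM, so that every sgLkb1 library was below every sgInert library. Transcript levels did not check the sgCebpa/b/d label in this way, since Cebpa was 0.73 ± 0.14 higher on the log2 scale there than in sgInert (adjusted p = 0.00148), with no overlap, and Cebpb and Cebpd were at 1.16 (adjusted p = 0.0524) and 0.20 (adjusted p = 0.742). Lung epithelial identity was evident in every library, with 25130 to 49770 summed CPM of 9 epithelial markers, Cdh1 and Epcam among them.

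EMT is the program by which epithelial cells loosen their cadherin-based junctions and take on a migratory, vimentin-rich state. Transcription factors of the Snail, Zeb and Twist families start it by binding E-box sequences and repressing epithelial genes such as Cdh1 and Epcam. In lung adenocarcinoma, high Hmga2 marks poorly differentiated tumors, while fibroblasts, endothelial cells and leukocytes of the tumor also express Vim, Zeb1 and Zeb2.

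In the fit of all libraries, the epithelial markers were abundant and were not called different in any comparison. Vim and Zeb2 were the members called higher there. Against sgInert, Vim rose by 2.13 ± 0.53 on the log2 scale with C/EBP targeting (sgCebpa/b/d) and by 2.00 ± 0.56 with Lkb1 targeting. Zeb2 rose by 1.56 ± 0.48 and by 1.77 ± 0.51. Without the libraries that carry no animal number, neither gene was called, while Vim was called in the MT libraries alone. For sgCebpa/b/d against sgInert, 2 of the 8 tested members were called higher and 0 lower, where 4.73% of all tested genes were called higher and 5.36% lower. For sgLkb1 against sgInert, the same 2 members were called higher and 0 lower, against 2.81% and 2.97% of all tested genes. The median log2 fold change of the 8 members was 0.94 and 1.02 in these comparisons, beside 0.02 and -0.01 over all genes. Both comparisons share the sgInert libraries. Differences with ± are log2 fold changes with their SE, p-values are adjusted over all tested genes, and they measure the spread between libraries, some of which share an animal number. Between sgCebpa/b/d and sgLkb1, 0 members were called higher and 0 lower by edgeR, where 2.83% and 3.12% of all genes were called. DESeq2 also called 0 members, where it called 571 genes higher and 565 lower of 13986. At an unadjusted p under 0.05 the edgeR count was 1 member (Hmga2). The share of all genes under that limit was not counted, so that no conclusion is drawn from this member count. No member separated the groups without overlap in any of the 3 comparisons, where 3.37%, 4.15% and 5.08% of all tested genes did.

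**Figure D1:**
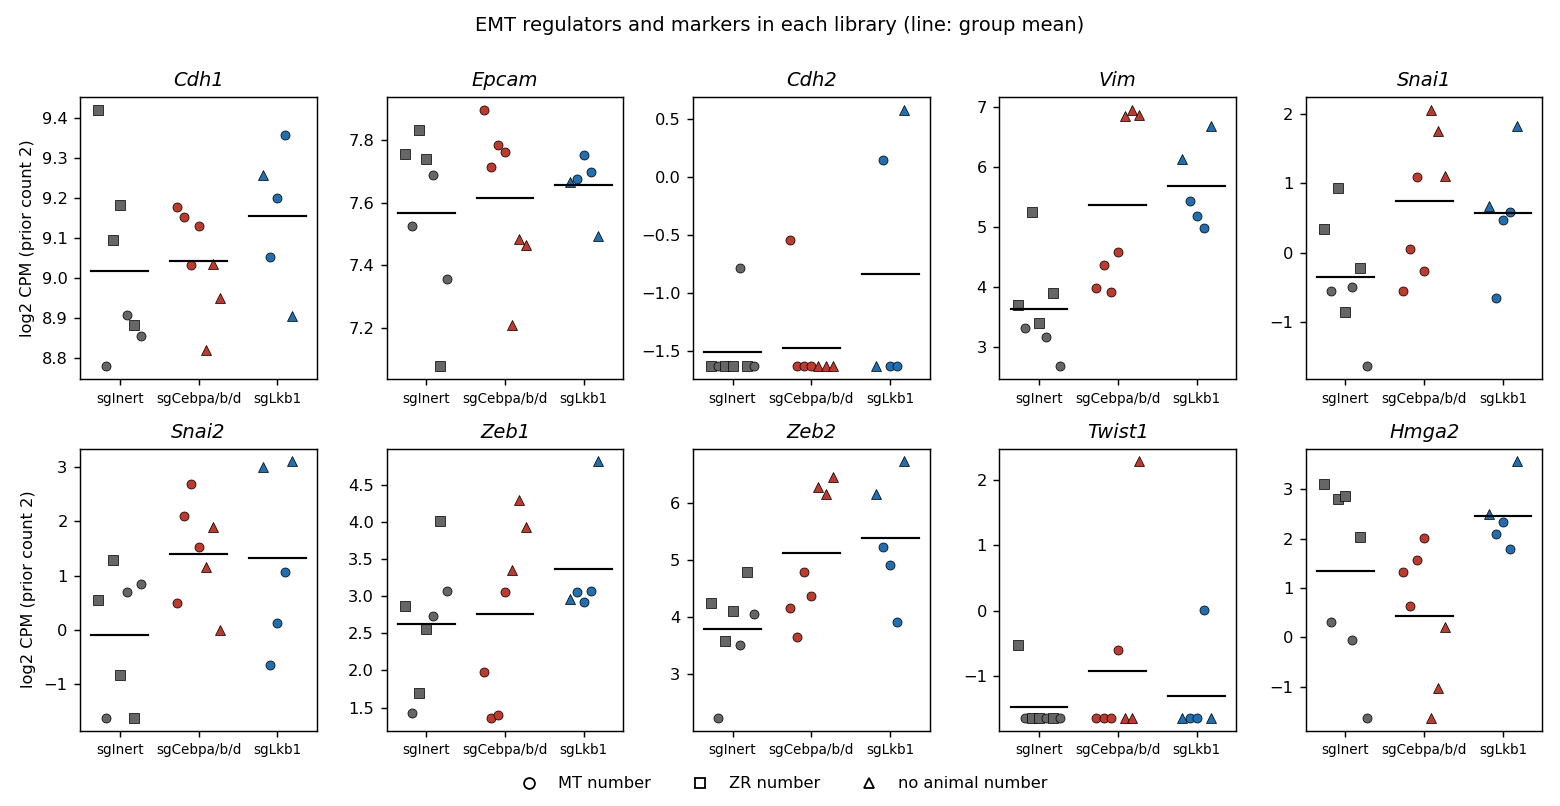
Level of each of the 10 members in every library on the log2 CPM scale (y axis, prior count of 2), by group (x axis). Circles are MT libraries, squares ZR libraries and triangles libraries with no animal number, and lines are group means. The triangles sit at the top of the Vim and Zeb2 panels, while the Cdh1 and Epcam panels span less than 1 log2 unit each.

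Cdh1 encodes E-cadherin, the adhesion protein of epithelial junctions. Per length, its level was 126 to 212 TPM (a unit of transcript abundance corrected for gene length) in sgInert with a median of 148. It was 124 to 187 TPM in sgCebpa/b/d with a median of 162, and 159 to 243 TPM in sgLkb1 with a median of 199. The ranges overlapped, and the difference from sgInert was 0.01 ± 0.10 in sgCebpa/b/d (95% interval -0.19 to 0.22, adjusted p = 0.959) and 0.13 ± 0.11 in sgLkb1 (95% interval -0.10 to 0.36, adjusted p = 0.590). The gene lies at chr8:106603351-106670246 on the plus strand of GRCm38.p6.

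Epcam encodes an epithelial cell adhesion molecule found on most carcinoma cells. Its level was 92.4 to 157 TPM in sgInert, 138 to 178 TPM in sgLkb1 and 96.2 to 176 TPM in sgCebpa/b/d. The 3 ranges overlapped. Its difference from sgInert was 0.04 ± 0.12 in sgCebpa/b/d (95% interval -0.20 to 0.28, adjusted p = 0.871) and 0.07 ± 0.13 in sgLkb1 (95% interval -0.19 to 0.33, adjusted p = 0.838). Because EMT repressors bind E-boxes, the 250 bases before its RefSeq start site are shown, with matches to CACCTG or its reverse complement CAGGTG in capitals. The gene lies at chr17:87635979-87651129 and the window at chr17:87635729-87635978, plus strand, GRCm38.p6, outside annotated exons.
Epcam: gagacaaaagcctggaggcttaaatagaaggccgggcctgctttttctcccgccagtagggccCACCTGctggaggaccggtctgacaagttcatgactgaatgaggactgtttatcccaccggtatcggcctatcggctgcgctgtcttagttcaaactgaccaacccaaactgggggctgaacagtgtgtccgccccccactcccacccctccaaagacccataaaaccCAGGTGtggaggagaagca
The window holds 2 matches. Of 27025 RefSeq windows of the same length, 17.1% hold at least 1. The pattern was also found once before Snai1 and was not found before Twist1, Hmga2, Vim or Zeb2. Entries were found for 6 of the 10 members, and Cdh1, Cdh2, Snai2 and Zeb1 had none.

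Cdh2 encodes N-cadherin, the cadherin that replaces E-cadherin in mesenchymal cells. It was at 0 counts in 6 of 7 libraries with inert guides, 6 of 7 with C/EBP guides and 3 of 5 with the Lkb1 guide. The remaining libraries had 2 counts in sgInert, 1 count in sgCebpa/b/d, and 5 and 8 counts in sgLkb1, with a highest value of 0.46 TPM. A count of 0 allows up to 3 counts, which was 0.295 to 1.09 CPM at the depth of these libraries and covers counting error only. The lowest Cdh1 level in any library was 124 TPM, and no library showed a switch from Cdh1 to Cdh2 transcripts.

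Vim encodes vimentin, the intermediate filament of mesenchymal cells, and lies at chr2:13573927-13582826 on the plus strand. In sgInert it ranged from 6.09 to 37.6 CPM with a median of 10.3. The 4 MT libraries of sgCebpa/b/d held 14.8, 15.6, 20.3 and 23.7 CPM and the 3 libraries with no number 115, 115 and 123 CPM. In sgLkb1 the MT libraries held 31.4, 35.8 and 42.6 CPM and the libraries with no number 69.2 and 102 CPM. The targeted groups were thus each split by title series, and the highest sgInert library (replicate 3, a ZR library) lay above all MT libraries of sgCebpa/b/d. The increase passed the test in sgCebpa/b/d (95% interval of the log2 fold change 1.03 to 3.23, adjusted p = 0.0106) and in sgLkb1 (0.85 to 3.16, adjusted p = 0.0339). With libraries of the same animal number summed, Vim in sgLkb1 was at 2.03 ± 0.56 (adjusted p = 0.0532) and was not called. In sgCebpa/b/d it was called (2.40 ± 0.55, adjusted p = 0.0100). Each of the 5 libraries with no number stayed a unit of its own in that fit, since their animals are not known. The sgCebpa/b/d group then held 2 summed animal numbers and its 3 libraries with no number, so that it does not compare known animals. Without the 5 libraries with no number, Vim differed by 0.42 ± 0.36 in sgCebpa/b/d (adjusted p = 0.611) and 1.38 ± 0.38 in sgLkb1 (adjusted p = 0.0513), and neither was called. In sgLkb1 the call was also lost when any of 8 single libraries was left out, including sgInert replicates 1, 2, 4, 5 and 7 and sgLkb1 replicates 1, 2 and 5, with adjusted p up to 0.121.

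Among the MT libraries alone, Vim took 3 separate levels. The sgInert libraries held 6.09, 8.64 and 9.65 CPM, below all MT libraries of sgCebpa/b/d, which in turn were below all of sgLkb1. Fitted on these 10 libraries, Vim was 1.18 ± 0.24 higher on the log2 scale in sgCebpa/b/d than in sgInert (adjusted p = 0.0065), 2.14 ± 0.25 higher in sgLkb1 than in sgInert (adjusted p = 1.20e-04), and differed by -0.96 ± 0.22 between sgCebpa/b/d and sgLkb1 (adjusted p = 0.0148). Of the genes tested in this fit, 4.3%, 3.61% and 3.3% were called in these directions, and 3.68% were called higher in the last comparison, where no member was. The libraries of each group came from 2 animal numbers here, so that the spread between animals is hardly sampled. Endothelial markers overlapped between the MT libraries of sgInert (17.3 to 42.6 CPM) and sgCebpa/b/d (18.3 to 47.3 CPM), and those of sgLkb1 were above both (47.6 to 90.8 CPM). Immune markers overlapped among the 3 groups (4.71 to 12.6 CPM), whereas Col1a1 and Col1a2 together gave 0.774 to 3.17 CPM in sgInert against 21.2 to 63.6 CPM in sgCebpa/b/d and 37.0 to 69.0 CPM in sgLkb1. The part of these cells in the Vim levels was not tested.

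The contrast between the targeted groups differed between the title series, which cannot be told apart from sex here. The sgCebpa/b/d libraries with no number were the only males among the targeted libraries. In the fit of all libraries the Vim difference, sgCebpa/b/d minus sgLkb1, was 0.13 ± 0.54 (95% interval -0.99 to 1.24, adjusted p = 0.933), although the mean of log2 CPM was lower in sgCebpa/b/d (5.36 against 5.68). Among the targeted libraries, this difference was 0.45 in the libraries with no number and -0.95 in the MT libraries, which differed by 1.40 ± 0.28 (adjusted p = 0.0298). This interaction, an analysis added after the data were seen, passed the threshold in 0.581% of 15313 genes, and Vim was the only member among them. Hmga2 and Snai2 differed by -3.91 ± 1.05 (adjusted p = 0.116) and -3.83 ± 1.02 (adjusted p = 0.112).

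**Figure D2:**
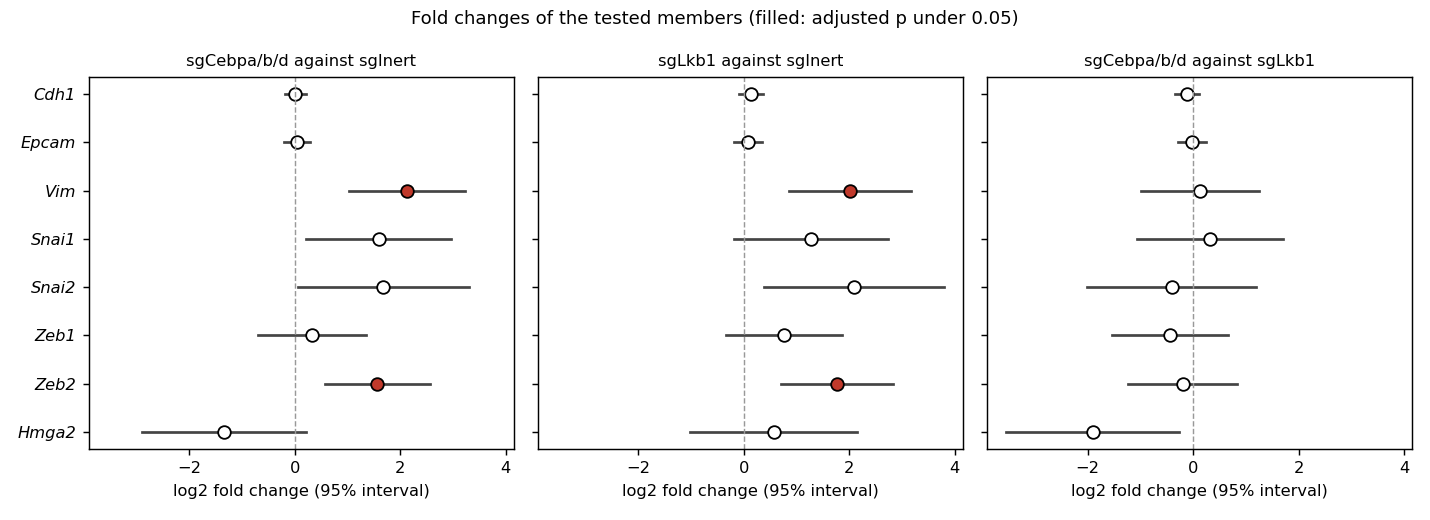
Log2 fold changes (x axis) of the 8 tested members (y axis) in the 3 comparisons, with bars for 95% intervals and filled points for an adjusted p under 0.05. Vim and Zeb2 are the filled points in both comparisons with sgInert, and the intervals of Cdh1 and Epcam are the narrowest.

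Among the E-box repressors only Zeb2 passed the test. Zeb2 lies at chr2:44983632-45117395 on the minus strand. In sgInert it ranged from 4.37 to 27.2 CPM with a median of 16.3. For Zeb2 the MT libraries of sgCebpa/b/d held 12.2, 17.4, 20.3 and 27.4 CPM and those with no number 70.7, 77.2 and 86.8 CPM. In sgLkb1 they held 14.8, 29.6 and 37.0 CPM, and 71.0 and 105 CPM. The 5 libraries with no number were again the 5 highest, and the MT libraries of both targeted groups overlapped with sgInert. The increase was called in sgCebpa/b/d (95% interval 0.57 to 2.56, adjusted p = 0.0395) and in sgLkb1 (0.71 to 2.82, adjusted p = 0.0407). It was not called without the libraries with no number, at 0.35 ± 0.36 (adjusted p = 0.681) and 0.84 ± 0.38 (adjusted p = 0.282), nor in the MT libraries alone, at 0.87 ± 0.41 (adjusted p = 0.251) and 1.35 ± 0.43 (adjusted p = 0.0795). With the title series as a covariate it was at 0.94 ± 0.37 (adjusted p = 0.152) and 1.29 ± 0.38 (adjusted p = 0.0533). All ZR libraries were sgInert, so that this fit also took the sgInert level from its MT libraries. With libraries of the same animal number summed, Zeb2 was called in sgCebpa/b/d (1.71 ± 0.51, adjusted p = 0.0456) and not in sgLkb1 (1.77 ± 0.53, adjusted p = 0.0751). The libraries with no number again stayed single in that fit, and their animals are not known. Leaving out any of 9 single libraries lost the call in each comparison, 6 of them sgInert replicates 1, 2, 3, 4, 5 and 7, the others sgCebpa/b/d replicates 5, 6 and 7 or sgLkb1 replicates 1, 2 and 5 (adjusted p up to 0.0991 and 0.174).

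Zeb2 overlaps genes on the opposite strand (Zeb2os among them), as do Zeb1, Cdh2 and Hmga2, and the authors ran RSEM with standard parameters, which do not use strand, so that reads of overlapping genes cannot be told apart. As the called regulator, Zeb2 is shown with the 250 bases before its most upstream RefSeq start (chr2:45117443-45117692, minus strand, GRCm38.p6, outside annotated exons), with capitals for a match to TTGCNNAA or its reverse complement, a loose form of the palindrome bound by C/EBP factors.
Zeb2: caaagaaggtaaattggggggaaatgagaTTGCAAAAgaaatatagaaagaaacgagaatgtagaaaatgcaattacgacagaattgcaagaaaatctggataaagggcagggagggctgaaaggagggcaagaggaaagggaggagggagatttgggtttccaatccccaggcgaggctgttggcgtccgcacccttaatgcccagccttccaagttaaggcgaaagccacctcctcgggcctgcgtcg
This window holds 1 match and no CACCTG or CAGGTG. The pattern TTGCNNAA stands in 9.55% of the 27025 windows, and it was not found before Epcam, Vim, Snai1, Twist1 or Hmga2. The window before Vim is not shown because it lies within annotated Vim exons.

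Zeb1, the partner of Zeb2 in repressing Cdh1, was at 2.37 to 15.8 CPM in sgInert (median 6.32), 7.28 to 27.8 CPM in sgLkb1 (median 7.995) and 2.25 to 19.3 CPM in sgCebpa/b/d (median 7.97). The highest sgLkb1 library was replicate 5, and the other 4 lay between 7.28 and 8.06 CPM. Against sgInert it differed by 0.32 ± 0.50 in sgCebpa/b/d (adjusted p = 0.758) and 0.76 ± 0.53 in sgLkb1 (adjusted p = 0.492). In sgLkb1 it was called with sex as a covariate (1.58, adjusted p = 0.0495). The ratio of Zeb2 to Zeb1 TPM had a median of 1.40 in sgInert, 1.96 with C/EBP guides and 1.40 with the Lkb1 guide, with overlapping ranges.

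The Snail factors had low counts in most libraries. Snai1, the archetypal repressor of Cdh1, had 0 to 6 counts per library in sgInert, 2 to 22 in sgLkb1 and 1 to 24 in sgCebpa/b/d. Its differences from sgInert were 1.59 ± 0.66 with C/EBP guides (adjusted p = 0.140) and 1.28 ± 0.70 with the Lkb1 guide (adjusted p = 0.351). Snai2, also called Slug, had 0 to 10 counts in sgInert, 2 to 67 in sgLkb1 and 3 to 39 in sgCebpa/b/d. Its differences from sgInert were 1.68 ± 0.78 with C/EBP guides (adjusted p = 0.193) and 2.09 ± 0.82 with the Lkb1 guide (adjusted p = 0.153). In sgLkb1 the libraries with no number held 57 and 67 counts of Snai2 and the MT libraries 2, 5 and 18, whereas in sgCebpa/b/d the MT libraries held 3, 15, 37 and 39 and those with no number 4, 12 and 20. Neither gene passed the test in any comparison. Twist1, a helix-loop-helix inducer of EMT, was at 0 in 15 of 19 libraries. Its highest value was 27 counts in sgCebpa/b/d replicate 7, a library with no number, followed by 7 counts in sgLkb1 replicate 4 and 2 counts in 1 library each of sgInert and sgCebpa/b/d. Tested with no low-count filter, neither Twist1 nor Cdh2 was called in any comparison (lowest adjusted p = 0.219).

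Hmga2, an architectural chromatin protein of fetal tissue and advanced lung adenocarcinoma, varied with the title series within every group. It lies at chr10:120361275-120476469 on the minus strand. In sgInert the ZR libraries held 3.78, 6.63, 6.99 and 8.30 CPM, and the MT libraries were at 0, 0.645 and 0.911 CPM. In sgCebpa/b/d the MT libraries held 1.23, 2.17, 2.64 and 3.73 CPM and those with no number 0, 0.169 and 0.836 CPM. In sgLkb1 the MT libraries held 3.15, 3.92 and 4.70 CPM and those with no number 5.31 and 11.5 CPM. The 3 groups overlapped as a whole, and against sgInert Hmga2 differed by 0.56 ± 0.76 in sgLkb1 (adjusted p = 0.773) and by -1.34 ± 0.75 in sgCebpa/b/d (adjusted p = 0.299). Between the targeted groups it differed by -1.90 ± 0.79 (95% interval -3.54 to -0.26, adjusted p = 0.185).

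Within the MT libraries the sgInert values of Hmga2 lay below those of both targeted groups. In this fit Hmga2 was 2.78 ± 0.76 higher on the log2 scale in sgLkb1 (adjusted p = 0.0410) and was at 2.09 ± 0.74 in sgCebpa/b/d (adjusted p = 0.105), each against sgInert. With the title series as a covariate in all libraries, its difference was 3.70 ± 1.01 in sgLkb1 (adjusted p = 0.0382) and 1.54 ± 0.91 in sgCebpa/b/d (adjusted p = 0.412). All ZR libraries were sgInert, so that the sgInert level of this fit rested on the same 3 MT libraries. The fit also took 1 shared shift for libraries with no number. For Hmga2 these lay below the MT libraries in sgCebpa/b/d and above them in sgLkb1. The 3 sgInert MT libraries had 5, 5 and 0 counts of Hmga2, so that these folds rest on few reads. Cdh1 was also called in the MT libraries of sgLkb1 (0.35 ± 0.10, adjusted p = 0.0435), where its MT range was 531 to 655 CPM against 439 to 480 CPM in sgInert. In that comparison 3 of the 7 members tested were called higher (Vim, Hmga2 and Cdh1), against 3.61% of all genes. With sgCebpa/b/d the count was 1 (Vim), against 4.3%. No member was called lower in either, where 4.25% and 3.36% of genes were called lower in sgCebpa/b/d and sgLkb1.

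In every group the order of median TPM was Cdh1, Epcam, Vim, Zeb2 and Zeb1, with the Snail genes and Hmga2 below and Cdh2 and Twist1 at a median of 0. Cdh1 and Epcam overlapped with each other, and neither overlapped with Vim. Vim and Zeb2 overlapped in sgInert and in sgCebpa/b/d but not in sgLkb1, where Vim was 24.8 to 68.7 TPM and Zeb2 3.28 to 21.6 TPM. The other neighbours in the order overlapped in each group. Per length, Cdh1 exceeded Vim in every library, by a median of 22.8 times in sgInert (range 6.96 to 33.5), 5.50 times in sgLkb1 (2.31 to 9.80) and 11.9 times in sgCebpa/b/d (1.64 to 17.1). The 3 lowest ratios in sgCebpa/b/d (1.64, 1.93 and 2.10) and the 2 lowest in sgLkb1 (2.31 and 4.24) were those of the libraries with no number.

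Stromal and vascular markers were read beside Vim and Zeb2. Col1a1 and Col1a2, which form the type I collagen of fibroblasts, summed to 0.774 to 61.2 CPM in sgInert (median 14.3), 37.0 to 69.0 CPM in sgLkb1 (median 55.6) and 21.2 to 71.4 CPM in sgCebpa/b/d (median 54.4). Neither collagen gene passed the test against sgInert, with log2 fold changes of 1.46 ± 0.55 for Col1a1 and 1.47 ± 0.56 for Col1a2 in sgCebpa/b/d (adjusted p = 0.0969 and 0.107) and 1.27 ± 0.58 and 1.71 ± 0.60 in sgLkb1 (adjusted p = 0.239 and 0.104). With their summed log2 level as a covariate, Vim was at 1.32 ± 0.73 in sgCebpa/b/d (adjusted p = 0.340) and 1.18 ± 0.75 in sgLkb1 (adjusted p = 0.446). The SE of Vim without this covariate were 0.53 and 0.56. Zeb2 was at 0.74 ± 0.60 (adjusted p = 0.563) and 0.92 ± 0.63 (adjusted p = 0.487), and no member was called. With the endothelial sum as a covariate, an alternative chosen after the data were seen, Vim was at 0.26 ± 0.51 (adjusted p = 0.852) and 0.34 ± 0.53 (adjusted p = 0.797). Zeb2 was at 0.32 ± 0.46 (adjusted p = 0.789) and 0.52 ± 0.51 (adjusted p = 0.646). With the immune sum, also chosen after the data were seen, Vim stayed called at 1.22 ± 0.28 (adjusted p = 0.0064) and 1.71 ± 0.29 (adjusted p = 6.7e-04). Zeb2 was not called, at 0.86 ± 0.38 (adjusted p = 0.182) and 1.28 ± 0.39 (adjusted p = 0.0531). In these bulk libraries, fewer cells of a type and less RNA per cell cannot be told apart.

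**Figure D3:**
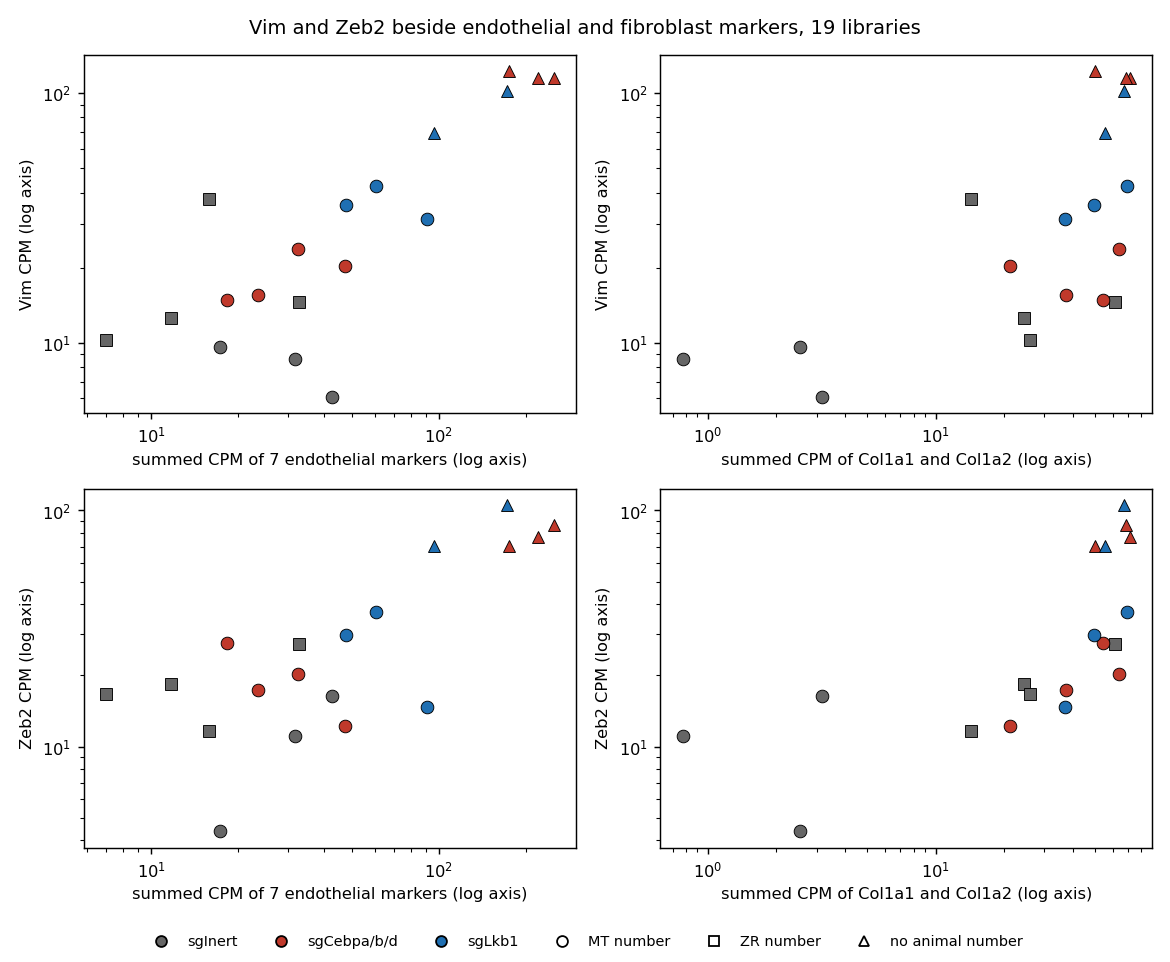
Vim and Zeb2 CPM (y axes, log scale) in 19 libraries against the summed CPM of 7 endothelial markers (left, log scale) and of Col1a1 and Col1a2 (right, log scale). Colors give the group and symbols the title series, and the 5 triangles, which are the libraries with no animal number, are highest on both y axes and hold the 5 highest endothelial sums.

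Of the 12 fibroblast markers 10 were tested, and 3 were called higher in each targeted group, namely Dcn (log2 fold change 2.88 and 2.84), Postn (1.98 and 2.42) and Col3a1 (1.52 and 1.70), with list medians of 1.47 and 1.49. Of the 7 endothelial markers, 6 were called higher in sgCebpa/b/d (among them Emcn, Tie1 at 2.67 and Vwf at 3.09) and 1 in sgLkb1 (Emcn, 2.45), with medians of 2.41 and 2.25 and all 7 fitted values above 0 in both. Tie1 and Vwf in sgLkb1 were above every sgInert library with adjusted p = 0.0517 and 0.0587. Of 8 immune markers 6 were tested, and 0 were called in either comparison by edgeR, with medians of 1.32 and 0.49, yet their summed level was 62.5 to 78.3 CPM in the sgCebpa/b/d libraries with no number against 4.71 to 9.71 CPM in its MT libraries. Adgre1, the gene of F4/80, was at 0 in 14 of 19 libraries. Ptprc, the gene of CD45, was at 0 in 3, and Pecam1, the gene of CD31, was at 0 in none. Ptprc reached 370 counts, against at most 20 in sgInert. Of 3 smooth muscle and pericyte markers tested, 1 was called in sgLkb1 (Rgs5, 3.32), and the single mesothelial marker tested, Msln, was called there as well (3.17). Summed mesothelial markers, Msln among them, were 7.68 to 22.3 CPM in sgLkb1, 0 to 4.91 CPM in sgCebpa/b/d and 0.182 to 4.51 CPM in sgInert. Msln held 42 to 118 counts in sgLkb1, while the highest count of any other marker of this list was 24 (Lrrn4). Wt1 was at 0 in 17 of 19 libraries. How much any of these cells contributed to the levels of Vim and Zeb2 was not tested.

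The wider program was read from 5 gene lists in the fit of all libraries alone, beside all-gene medians of 0.02 for sgCebpa/b/d and -0.01 for sgLkb1. In this fit, 4.73% of all tested genes were called higher and 5.36% lower in sgCebpa/b/d, and 2.81% and 2.97% in sgLkb1. How much stromal cells contributed to the levels of these genes was not tested. Among 23 tested epithelial junction and splicing genes, 3 were higher in sgCebpa/b/d (the desmosomal genes Dsg2, Dsc2 and Jup, at 2.30, 2.91 and 0.37 on the log2 scale) and 1 was lower, with a list median of 0.02. In sgLkb1 only Esrp2, a splicing factor of epithelial isoforms, was called (0.42, adjusted p = 0.0237), with a median of 0.01. Between sgCebpa/b/d and sgLkb1, Dsg2 was higher (1.57, adjusted p = 0.0267), and Esrp2 was lower (-0.39, adjusted p = 0.0373) in sgCebpa/b/d.

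Among 23 tested mesenchymal genes, 5 were higher in sgCebpa/b/d and 8 in sgLkb1, with none lower and list medians of 0.42 and 0.84. Of all tested genes, 4.73% and 2.81% were called higher in these groups. The 4 shared genes were Itgb3, an integrin of the vitronectin receptor (2.71 and 3.08), the matrix protein gene Sparc (0.43 and 0.55), the membrane protease gene Mmp14 (0.87 and 1.39) and the tropomyosin gene Tpm2 (1.34 and 2.06). Fibronectin (Fn1) was among the other genes called in sgLkb1 (2.40 ± 0.39), and its value in sgCebpa/b/d was 1.11 ± 0.36 (adjusted p = 0.0504). Itgb3 and Sparc were above every sgInert library in both targeted groups, as were Fn1, Mmp14 and Tpm2 in sgLkb1. Over all tested genes, 3.37% in sgCebpa/b/d and 4.15% in sgLkb1 had no overlap with sgInert, in either direction. Fn1 was also the gene of this list called between the targeted groups, at -1.29 ± 0.38 (adjusted p = 0.0455), with every sgCebpa/b/d library below every sgLkb1 one. The fibroblast and endothelial marker lists rose in the same groups, with medians of 1.47 and 2.41 in sgCebpa/b/d and 1.49 and 2.25 in sgLkb1.

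Of 17 further EMT transcription factors 10 were tested. In sgCebpa/b/d, Runx2 (1.85), Id3 (1.52) and Sox9 (1.92) were higher and Id2 was lower (-1.12, adjusted p = 0.00313), with a list median of 0.64 against 0.31 for sgLkb1. Id2, an inhibitor of helix-loop-helix factors, was also lower in sgLkb1 (-1.48, adjusted p = 0.00165), where every library was below all sgInert libraries, and no other gene of the list was called there. Of 19 tested genes of TGF-beta, BMP and Notch signaling, the ligand gene Tgfb2 was higher in both targeted groups, by 1.09 ± 0.19 and 1.09 ± 0.21, and above all sgInert libraries in each. The list medians were 0.09 and 0.21. Hes1 (0.69) and Bmp4 (0.39) were the other calls in sgCebpa/b/d. In sgLkb1, the receptor gene Tgfbr2 (0.60, adjusted p = 0.00377) and the latency protein gene Ltbp1 (1.83) were higher and Notch1 was lower (-0.56). Of 6 tested oncofetal genes, the growth factor gene Igf2 was higher in both (3.28 and 3.39), and Plagl1 was lower in sgLkb1 (-1.56), with list medians of -0.33 and -0.21. Between the targeted groups, Id3 (1.19), Bmp4 (0.81) and Plagl1 (1.496) were higher in sgCebpa/b/d, and the TGF-beta pathway genes Tgfbr2 and Smad3 were lower (both at -0.51). Of the 9 lung epithelial markers, the keratin gene Krt18 was higher against sgInert in both targeted groups (0.59 and 0.70) and the surfactant gene Sftpc was lower (-0.31 and -0.39), with Sftpa1 also lower in sgLkb1 (-1.08).

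The profiles most like those of the members over the 19 libraries, by Pearson's r of log2 CPM among genes with an average log2 CPM above 2, are given as a description of libraries that share their group and title series. For Vim they were Mt1 (r = 0.913), Jam2 (0.904) and Fxyd5 (0.903). For Zeb2 they were Marcks (0.923), Prex2 (0.886) and Ets1 (0.872), and for Hmga2 Tgfbr1 (0.819), Sprr1a (0.805) and B4galt1 (0.794). Snai1 had Vim as its second neighbour (0.822) after Cdc25b (0.826). For Epcam the highest r was that of Sdhd (0.846).

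**Figure D4:**
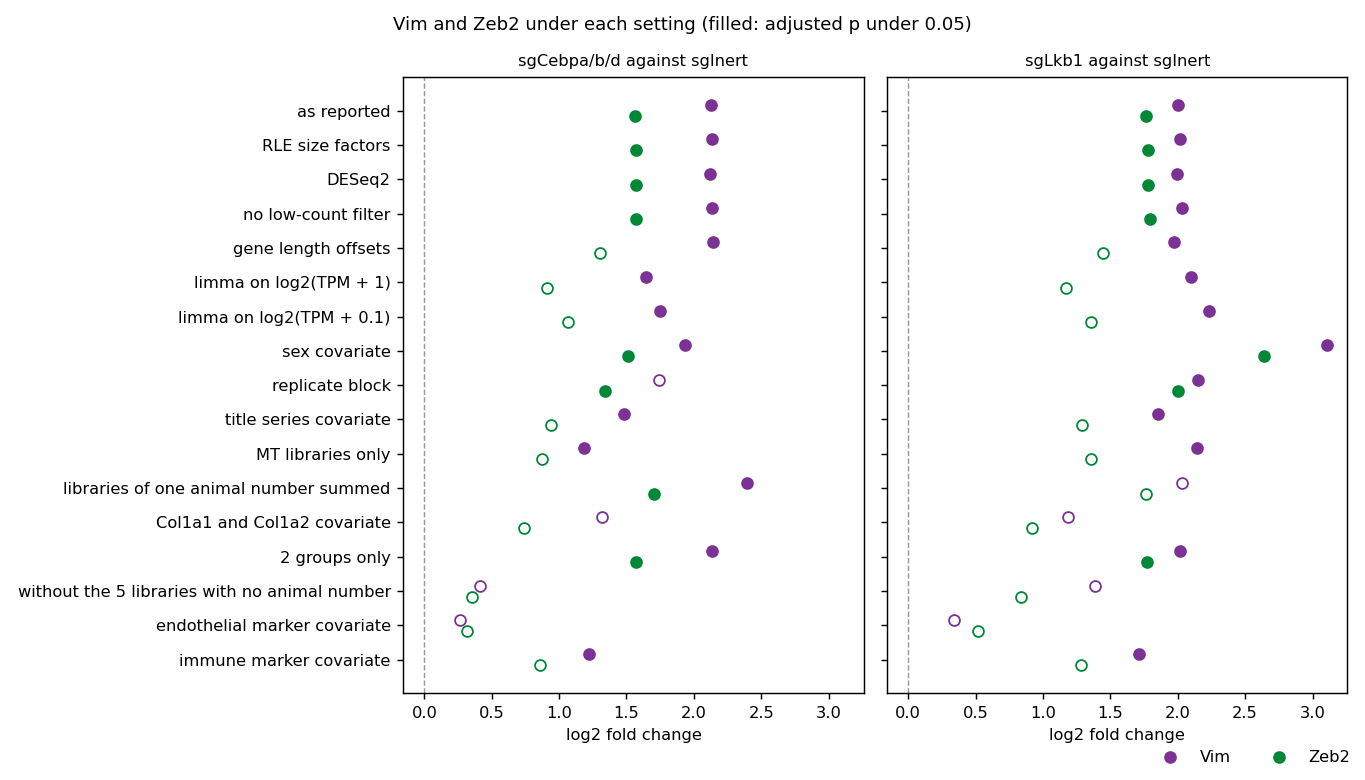
Log2 fold changes (x axis) of Vim and Zeb2 against sgInert under each way of fitting the data (y axis), with filled points for an adjusted p under 0.05. All points lie above 0, and both genes are lowest in sgCebpa/b/d with the endothelial covariate (0.26 and 0.32), where neither is filled.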

How the data were processed

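Bulk RNA-seq was made from 19 libraries of sorted tumor cells. Reads were aligned by the authors to mm10 with STAR (2.6.1d), and the deposited expected counts and TPM values per gene were estimated by the authors with RSEM (1.2.30). Expected counts were rounded here before testing. Expected counts were rounded here before testing. The authors' tests used DESeq2 (1.26.0). RSEM was run with standard parameters, which do not use strand. Genes were filtered with filterByExpr (minimum count 10, minimum total 15), normalized by TMM and tested with edgeR's quasi-likelihood test (4.0.16, R 4.3.3) in 1 model of all libraries without covariates. This replaced DESeq2, which was an alternative (1.42.0). Calls needed an adjusted p (Benjamini-Hochberg, over all tested genes) under 0.05. CPM values used TMM library sizes, and a count of 0 was read as up to 3 counts. The code was tested on simulated data. Genes named from a list were up to 3 per direction with the smallest p; Cebpa and a few further values were chosen after they were seen. Members and lists were chosen with earlier results of these data known. Alternatives were other normalizations, filters, limma (3.58.1) on log2 TPM with a pseudocount of 1 or 0.1, covariates, summed libraries of 1 animal number and left-out libraries. Alternatives added after the data were seen were fits without the 5 libraries that lack an animal number, with endothelial or immune markers as a covariate, and the title series interaction. Promoter windows came from RefSeq, and gene positions from the GENCODE annotation of GRCm38.p6. A few items are not reported here.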

Additional observations from a re-analysis of the deposited data

Results flagged for a closer look

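In 6 of 30 gene and group pairs, 1 library stood farther from the rest of its group than Dixon's 95% limit, a limit that chance passes in about 1 of 20 groups. In 5 of these pairs the gene was Cdh2 or Twist1 and nearly all other libraries were at 0 counts. The Cdh2 values were -0.7832 on the log2 CPM scale in sgInert replicate 5 (2 counts) and -0.5455 in sgCebpa/b/d replicate 1 (1 count). The Twist1 values were -0.5139 in sgInert replicate 1 (2 counts), 0.01623 in sgLkb1 replicate 4 (7 counts) and 2.275 in sgCebpa/b/d replicate 7 (27 counts), where the nearest library of that group was at -0.5949. The remaining value was Zeb1 in sgLkb1 replicate 5, at 4.814 with the nearest library at 3.068.

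The difference of Vim between sgCebpa/b/d and sgLkb1 was not the same in the title series. It was 1.4038 higher on the log2 scale in libraries with no animal number than in MT libraries, by an interaction term in edgeR (adjusted p = 0.0298). Its cause was not tested. Title series and sex cannot be told apart in this term, since the sgCebpa/b/d libraries with no number were the only males among the targeted libraries.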

How the results depend on the processing

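Calls on the members depended on which libraries entered and on covariates. Of Vim and Zeb2 in sgCebpa/b/d against sgInert, 1 was called with gene length offsets, limma on log2 TPM with either pseudocount, the title series covariate, the MT libraries alone or the immune covariate (Vim each time), 1 with the replicate block (Zeb2), and 0 with the Col1a1 and Col1a2 covariate, the endothelial covariate or without the 5 libraries with no animal number. In sgLkb1 against sgInert, 1 was called with gene length offsets, limma with either pseudocount or the immune covariate (Vim), and 0 with libraries of 1 animal number summed, either of the collagen and endothelial covariates, or without the 5 libraries. Zeb2 was not called there with the title series covariate (1.29, adjusted p = 0.0533) or in the MT libraries alone (1.35, adjusted p = 0.0795), where Vim was called beside Hmga2 and, in MT libraries, Cdh1. Both fits took the sgInert level from the same MT libraries. Between the targeted groups, 1 member was called lower in the MT libraries (Vim) and 1 with the endothelial covariate (Hmga2, -2.78, adjusted p = 0.0288). Leaving out single libraries gave 0 to 2 calls in sgLkb1 and 1 to 2 in sgCebpa/b/d. RLE size factors, DESeq2, no low-count filter, fits of 2 groups, sex as a covariate and an added fold threshold kept both calls in both comparisons. With sex, Vim was at 1.94 ± 0.36 in sgCebpa/b/d (adjusted p = 9.2e-04) and 3.10 ± 0.43 in sgLkb1 (adjusted p = 6.5e-05). Zeb2 was at 1.51 ± 0.37 (adjusted p = 0.0087) and 2.64 ± 0.45 (adjusted p = 5.2e-04). All sgLkb1 libraries were female, so that the sex term was estimated from the other groups. The fitted value of Vim and of Zeb2 stayed above 0 against sgInert in every alternative.

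Signs turned only for values that the fit of all libraries did not call. Against sgInert in sgCebpa/b/d, Cdh1 was -0.0485 with summed libraries and -0.0631 with the collagen covariate; Epcam was -0.00368 with sex as a covariate and -0.0379 with summed libraries; Zeb1 was -0.32 with the title series, -0.47 in MT libraries, -0.29 with the collagens, -0.78 without the 5 libraries, -1.03 with the endothelial and -0.20 with the immune covariate; Hmga2 was 1.54 with the title series and 2.09 in MT libraries. In sgLkb1, Epcam was -0.0753 with sex and -0.0135 with the replicate block, Zeb1 was -0.65 with the endothelial covariate and Hmga2 was -0.78 with the collagens. For sgCebpa/b/d against sgLkb1, Epcam was 0.0716 with sex, 0.0632 with the replicate block, 0.0800 in MT libraries and 0.0791 without the 5 libraries. Vim was -0.46 and -0.49 with limma at pseudocounts of 1 and 0.1, -1.17 with sex, -0.41 with the replicate block, -0.37 with the title series, -0.96 in MT libraries (called), -0.97 without the 5 libraries, -0.0775 with the endothelial and -0.49 with the immune covariate. Snai1 was -0.55 with sex, and Snai2 was 0.25 with the replicate block, 0.0394 with the title series, 1.82 in MT libraries and 1.82 without the 5 libraries. Leaving out single libraries gave ranges across 0 of -0.0247 to 0.09003 for Cdh1, -0.0268 to 0.103 for Epcam and -0.00784 to 0.68 for Zeb1 in sgCebpa/b/d against sgInert, and of -0.0747 to 0.0210 for Epcam, -0.14 to 0.45 for Vim, -0.71 to 0.0913 for Snai2, -0.77 to 0.16 for Zeb1 and -0.46 to 0.23 for Zeb2 between the targeted groups. The cause was not tested.

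Replicate numbers did not pair libraries, since 7 of 17 same-number pairs correlated above 0.1 and 3 of 19 libraries correlated best with their own number. With the replicate block, Vim in sgCebpa/b/d was 1.74 (adjusted p = 0.0623) and Zeb1 in sgLkb1 was 1.28 (adjusted p = 0.0233). Over all genes, limma on log2(TPM + 1) called 783 genes higher and 148 lower in sgLkb1 against sgInert, with a median over all genes of 0.18, where edgeR called 393 and 416. In sgCebpa/b/d against sgLkb1 it called 162 and 805, with a median of -0.15, where edgeR called 396 and 437. Depth limits Cdh2 and Twist1, which had 0 counts in most libraries.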
